A study of Mus musculus with 9 samples.

Results

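In control mouse embryonic stem cells, chromatin immunoprecipitation followed by sequencing listed 8280 sites of trimethylated lysine 27 of histone H3 (H3K27me3), and 1118 of these (13.5%, exact 95% interval 12.8 to 14.3) form the set described here. They are the control H3K27me3 sites of at least 3000 bp that share at least 1 base with a site of Suz12 and none with a site of Phf19. The domains were chosen by their measured width and by their overlap with listed Suz12 and Phf19 sites, so these 3 measures are given as descriptions, without a test, while the H3K27me3 list of Phf19-depleted cells was not used to choose them. All samples came from E14Tg2A embryonic stem cells grown without feeders on gelatin with serum and leukemia inhibitory factor. The control H3K27me3 library came from cells with a random short hairpin RNA (shRd, labelled wild type) and the depleted library from cells with a hairpin against Phf19 (shPhf19). Suz12 and Phf19 were mapped in wild-type cells, Suz12 in 1 library and Phf19 in 2 replicates whose shared sites make up its list. The lists hold positions alone, so neither the read depth nor the identity of the cells could be checked, and each H3K27me3 condition is 1 library. In the labels, the catalogue number of the H3K27me3 antibody differs between these 2 conditions, and the part of this in the shPhf19 values was not tested.

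H3K27me3 is deposited by Polycomb repressive complex 2 (PRC2), in which Ezh1 or Ezh2 is the methyltransferase and Suz12 and Eed are core subunits. In embryonic stem cells the mark and the complex are known to lie at CpG-rich promoters of developmental genes that are kept silent until differentiation. Phf19 is a Polycomb-like accessory subunit that binds methylated lysine 36 of histone H3 through its Tudor domain. The domains described here carry the mark over a wide stretch and hold the core subunit, but no listed site of this accessory subunit. No annotation of the build of the lists, mm9, was used, so genes at the domains are not named and their sequences are not printed.

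The domains covered 4.80 Mb, or 19.8% of the length of all control H3K27me3 sites. Most lay not far above the width limit. The median was 3820 bp (interquartile range 3353 to 4571), and the widest reached 36800 bp. By width, 633 domains measured 3 to 4 kb, 294 measured 4 to 5 kb, 154 measured 5 to 7.5 kb and 37 measured 7.5 kb or more. Wide domains with both Suz12 and Phf19 numbered 1253, had a larger median width of 5134 bp, and 287 of them measured 7.5 kb or more. A further 238 wide control sites held neither factor, with a median of 3730 bp. Just inside the limit lay chr7:80517277-80520277 (3000 bp), chr15:80401948-80404950 (3002 bp) and chr16:26966854-26969856 (3002 bp). Just outside it lay chr1:50984334-50987333 (2999 bp), chr11:24063734-24066731 (2997 bp) and chr3:115416740-115419737 (2997 bp). Suz12 covered 59.2%, 30.6% and 31.1% of the first 3 and 37.7%, 54.9% and 46.9% of the others.

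Most domains held 1 Suz12 site, and Suz12 covered the centre more often than the edges. A single Suz12 site was found in 983 domains (87.9%), a pair in 121, and 3 or more in 14. The domain centre lay on Suz12 in 854 domains (76.4%, 73.8 to 78.8), whereas Suz12 was present at 17.9% and 19.0% of the 2 domain edges. A single Suz12 stretch over more than 50% of a domain takes in its centre wherever it lies. Coverage reached at least 50% in 533 domains, so the share at the centre does not by itself show central placement. No Suz12 site passed an edge in 719 domains, 1 edge was passed in 386, and both edges in 13. Suz12 covered a median of 49.0% of the domain length (interquartile range 38.0 to 61.3), or 1958 bp. It covered at least 90% of the length in 20 domains and under 10% in 11.

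**Figure D1:**
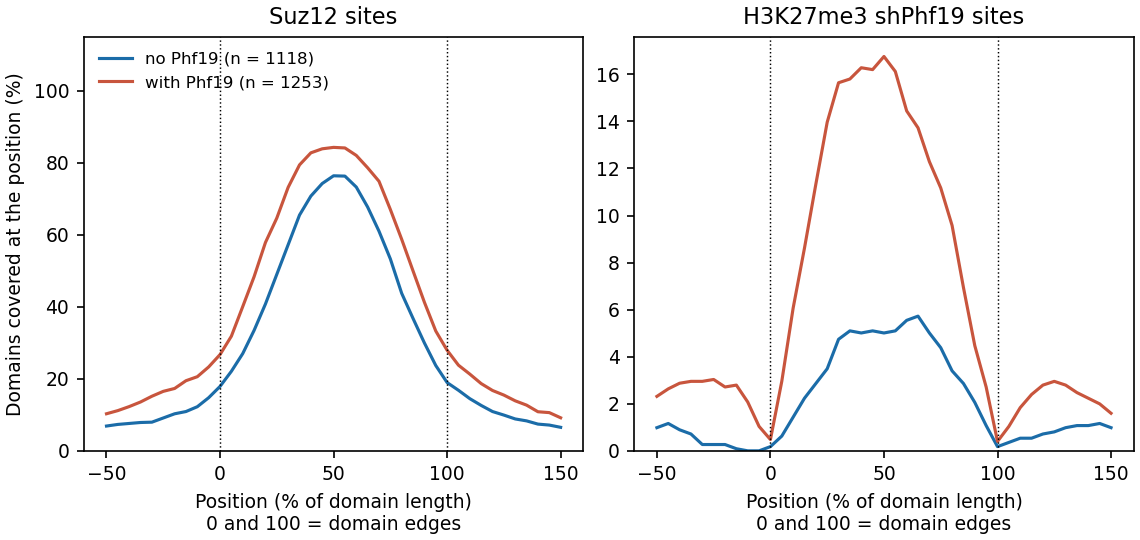
Share of wide control H3K27me3 domains (y axis, %) covered by a Suz12 site (left) or an shPhf19 H3K27me3 site (right; note the smaller scale) at each position along the domain (x axis, % of its length, 0 and 100 being the edges), for domains without Phf19 (blue, n = 1118) and with Phf19 (red, n = 1253). Suz12 covered 76.4% of the blue and 84.3% of the red domains at the centre, and shPhf19 sites 5.01% and 16.8%.

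Wider domains held more Suz12 in bases but not as a share of their length. In domains of 3 to 4 kb Suz12 covered a median of 52.4% of the length (1784 bp), and in those of 7.5 kb or more 40.6% (3758 bp). In the domains with Phf19 the medians of the same classes were 62.6% and 64.9%. Across the 1118 domains width and Suz12-covered length had a Spearman rho of 0.426, and across the 1253 domains with Phf19 it was 0.788. Both correlations are across sites of the same libraries, and the covered length cannot exceed the width. More than 1 Suz12 site was found in 7.11% of the domains of 3 to 4 kb and in 54.1% of those of 7.5 kb or more.

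The 10 widest domains differed widely in how Suz12 filled them. The 2 widest lay 49.7 kb apart, at chr6:47686900-47723700 (36.8 kb) and chr6:47601285-47637202 (35.9 kb). A single Suz12 site covered 99.5% and 99.9% of their length, and no shPhf19 site overlapped either. The third, chr5:33794031-33820544 (26.5 kb), was the opposite case: 1 Suz12 site of 905 bp covered 3.41% of it. It had 6 other control sites within 10 kb, the nearest 0.211 kb away, and its nearest Phf19 site lay 15.6 kb off. The domain at chr2:116374875-116387922 (13.0 kb) was similarly bare, with 4.90% on Suz12, but stood alone, with the next control site 470.8 kb away. At chr2:33423624-33444212 (20.6 kb) 2 Suz12 sites covered 32.9%, and at chr17:6473176-6484443 (11.3 kb) 1 site covered 46.5%. None of these 6 was listed after Phf19 depletion.

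The other 4 of the 10 widest were still listed after depletion. At chr10:21867851-21881305 (13.5 kb) 2 Suz12 sites covered 50.3% of the length and 2 shPhf19 sites 50.7%. At chr17:36214936-36226384 (11.4 kb) 1 Suz12 site covered 27.3% and 2 shPhf19 sites 55.9%. The remaining pair kept only a small piece. At chr15:93340237-93356598 (16.4 kb) 2 Suz12 sites covered 16.4% and 1 shPhf19 site 8.26%, and at chr18:37164513-37175452 (10.9 kb) 4 Suz12 sites covered 48.3% and 1 shPhf19 site 9.11%. In both, most of that piece was on Suz12, 78.5% and 88.4%.

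**Figure D2:**
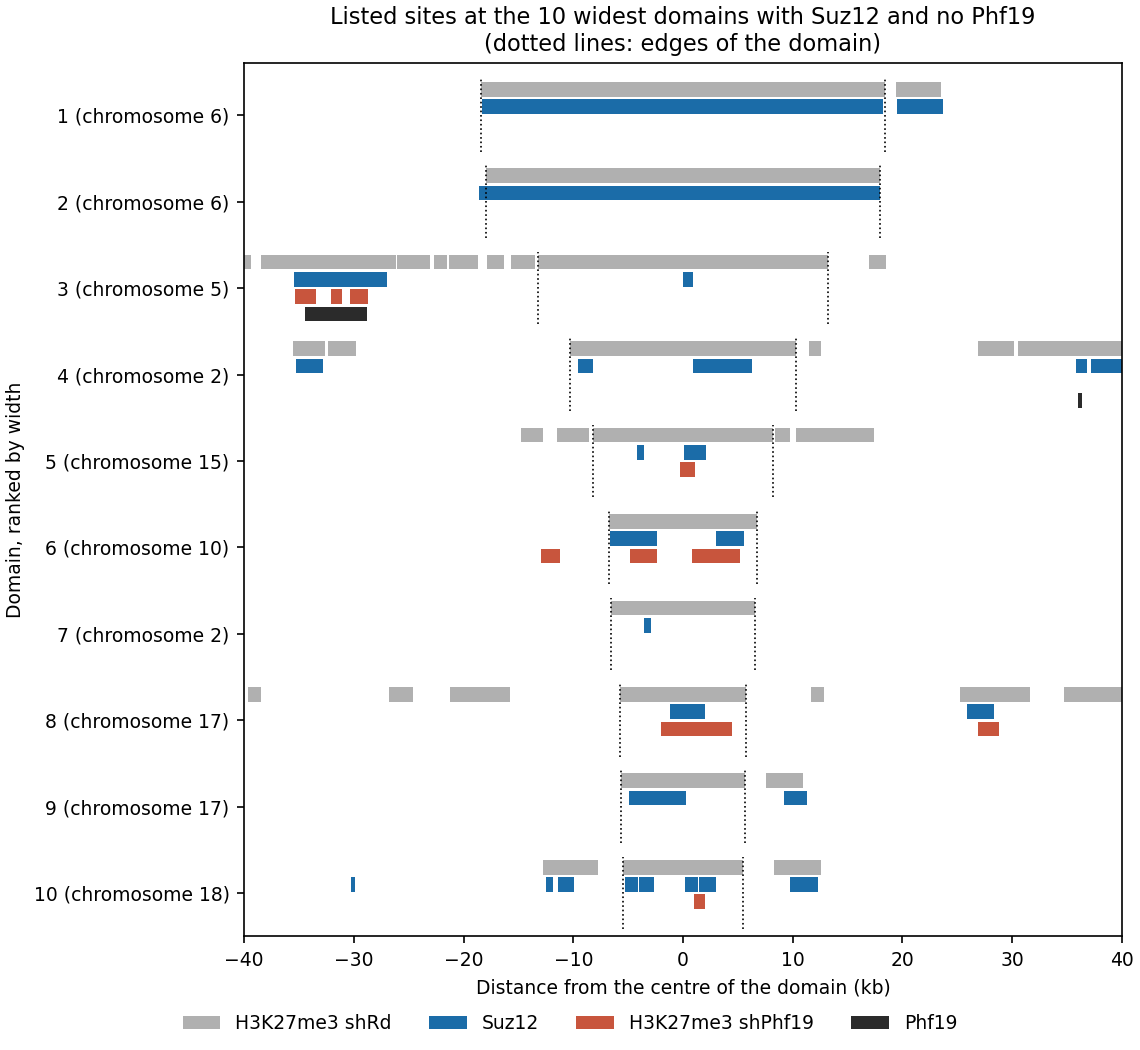
Listed sites within 40 kb of the centre (x axis, kb) of the 10 widest domains with Suz12 and no Phf19 (rows, in order of width), with control H3K27me3 in grey, Suz12 in blue, shPhf19 H3K27me3 in red, Phf19 in black and dotted lines at the domain edges. Suz12 fills the first 2 domains (99.5% and 99.9% of the length) and 3.41% of the third, and red sites lie inside 4 of the 10.

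Of the domains with the most Suz12 sites, those at the top of the list were filled by it in part. The 5 sites at chr18:34701814-34712051 (10.2 kb) covered 44.7% of its length, and 4 sites at chr2:172552649-172559172 (6.52 kb) covered 58.7%. Neither was still listed. At chr4:88400633-88410321 (9.69 kb) 4 Suz12 sites covered 85.8%, and 1 shPhf19 site covered 10.7%. At chr11:96048080-96054470 (6.39 kb), 1 of the 10 domains with 3 Suz12 sites, Suz12 covered 43.3% and 2 shPhf19 sites covered 37.0%.

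After depletion of Phf19, 112 of the 1118 domains (10.0%, 8.32 to 11.9) still overlapped an H3K27me3 site, and 1006 did not. The whole shPhf19 list was short, with 1180 sites over 2.07 Mb against 8280 sites over 24.3 Mb in control cells. Of all control sites 8.96% were still listed, and of all those of at least 3000 bp 22.7%, and the latter share includes the domains without Phf19. These intervals take in counting error alone and assume that neighbouring sites vary independently, which they need not. A site that is not listed does not show that the mark is absent there.

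Wide domains with Suz12 and Phf19 were still listed in 453 of 1253 cases (36.2%, 33.5 to 38.9). The domains without Phf19 were thus lower by 26.1 percentage points (Newcombe 95% interval of the difference, -29.3 to -22.9). Part of this went with width, but the difference had the same direction within each width class. At 3 to 4 kb the shares were 5.85% without and 13.9% with Phf19, a difference of -8.02 points (-12.4 to -4.12). At 4 to 5 kb they were 11.9% and 22.8% (-10.9 points, -17.2 to -4.69), and at 5 to 7.5 kb 17.5% and 36.4% (-18.9 points, -26.1 to -10.6). At 7.5 kb or more they were 35.1% (13 of 37) and 74.6% (214 of 287), a difference of -39.4 points (-53.5 to -22.5), with domains that were wider where Phf19 was present (median 11294 bp against 9132 bp). Weighted by the domains without Phf19 in each class, the difference was -11.3 points.

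The domains without Phf19 also held less Suz12, and classes of Suz12-covered length were compared for this reason. With 1 to 2 kb on Suz12 the shares still listed were 6.37% without and 15.7% with Phf19 (-9.33 points, -15.8 to -4.01), and with 2 to 3 kb 11.2% and 21.4% (-10.3 points, -15.4 to -5.15). With 3 to 4 kb they were 22.6% and 27.5%, and the interval of that difference held 0 (-4.96 points, -14.1 to 5.74). With 4 kb or more they were 30.8% and 66.2% (-35.4 points, -48.4 to -19.0), but in this open class the covered length was still unequal, with medians of 4882 bp and 5869 bp, as was the width, 7139 bp and 8693 bp. The class under 1 kb held 3 of 96 and 1 of 16 domains still listed, too few to show a difference (-3.12 points, -25.3 to 4.52). Weighted over these classes the difference was -9.69 points.

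**Figure D3:**
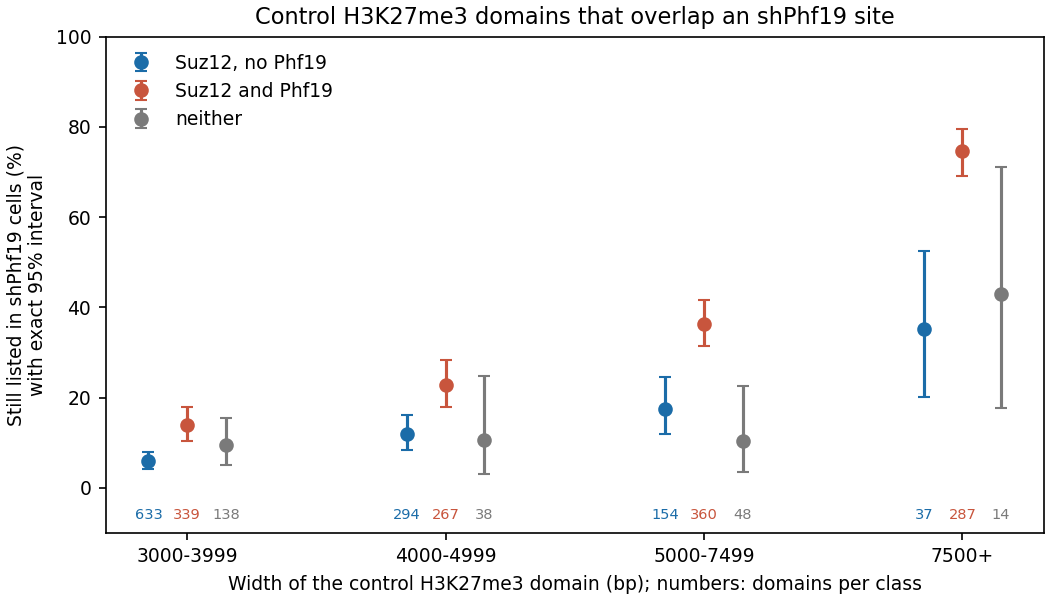
Share of control H3K27me3 domains that overlap an shPhf19 site (y axis, %, with exact 95% intervals) by width of the domain (x axis, bp), for domains with Suz12 and no Phf19 (blue), with Suz12 and Phf19 (red) and with neither (grey), with the number of domains under each point. Blue points run from 5.85% to 35.1% and lie below the red ones, which run from 13.9% to 74.6%, in each class.

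No difference from wide sites that held neither factor could be shown. Of those, 28 of 238 (11.8%, 7.96 to 16.6) were still listed, and the difference was -1.75 points (-6.73 to 2.23). The intervals held 0 in each of the 4 width classes, and the sign changed in 5 of 11 alternative settings. In summed length, shPhf19 sites covered 71.2% of the 28 and 34.0% of the 112 domains without Phf19 that were still listed. Narrow control sites with Suz12 and no Phf19, under 3000 bp, were still listed in 48 of 2911 cases (1.65%, 1.22 to 2.18), which was 8.37 points less than in the wide domains (6.66 to 10.3). Their median width was 1846 bp against 3820 bp. By definition the narrow sites and the wide domains share no width, so the difference in shares cannot be adjusted for it. No step was seen at the limit itself. Of sites up to 100 bp below it 4 of 80 (5.00%) were still listed, and of domains under 100 bp above it 5 of 93 (5.38%).

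Among the 1118 domains, those still listed were wider and had more Suz12. Their median width was 4365 bp against 3758 bp for the others, and their Suz12-covered length 2388 bp against 1926 bp. Domains with more than 1 Suz12 site were still listed in 27 of 135 cases (20.0%) and those with 1 in 85 of 983 (8.65%), a difference of 11.4 points (5.17 to 19.1). The former also had the larger median width, 4626 bp against 3747 bp. By the share of the length on Suz12, no difference could be shown over all widths. Of domains with at least 50% on Suz12, 11.3% were still listed, against 8.89% of the rest (2.37 points, -1.17 to 5.97). Of the 4 width classes, the interval of this difference excluded 0 at 5 to 7.5 kb alone. There, 15 of 52 and 12 of 102 domains were still listed (17.1 points, 4.06 to 31.4). The split by coverage was chosen after the data were seen, and the intervals were not adjusted for looking at 4 classes.

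**Figure D4:**
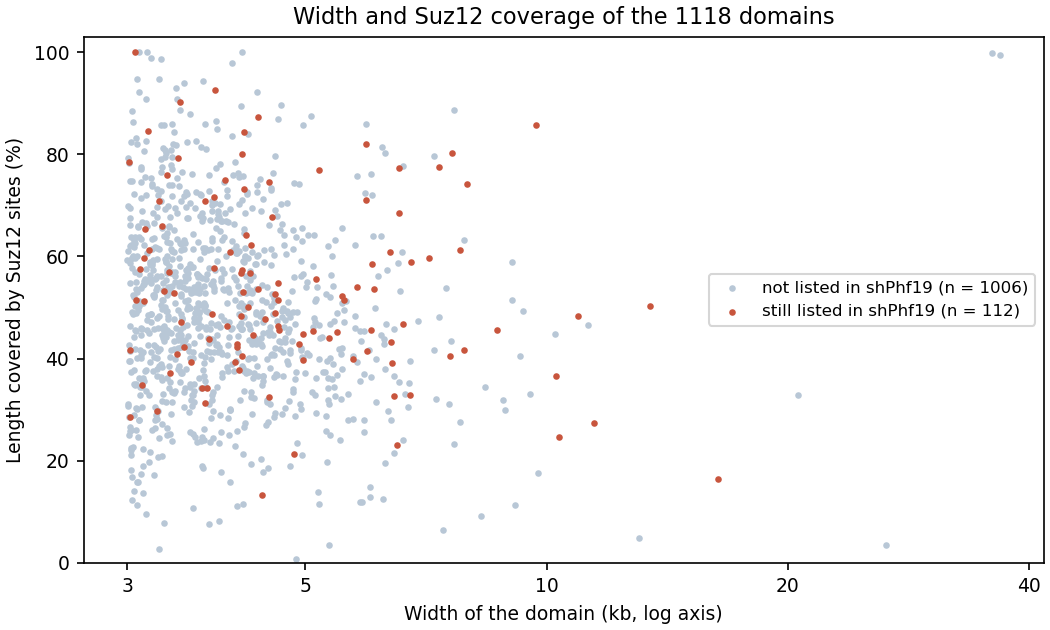
Width (x axis, kb, log scale) and share of the length covered by Suz12 (y axis, %) of the 1118 domains, with the 112 that overlap an shPhf19 site in red and the other 1006 in pale blue. Red points lie between 13.4% and 100% Suz12 coverage, and the 4 widest domains, 2 of them near full Suz12 coverage, are all pale blue.

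What remained listed was usually 1 short piece, mostly on Suz12, and short sites were general in the shPhf19 list. The median width of all its sites was 1459 bp, against 2175 bp for all control sites. In 105 of the 112 domains 1 shPhf19 site remained, and in 7 there were 2. These covered a median of 1413 bp, or 33.8% of the control width (interquartile range 25.3 to 40.5), and at least 50% in 15 domains. The median covered length was 1708 bp in still-listed wide domains with Suz12 and Phf19. It was 1260 bp in still-listed narrow sites with Suz12 and no Phf19. Suz12 took up 52.0% of the summed length of the 112 domains but 69.3% of the length still covered. By domain, the share of the covered piece on Suz12 had an interquartile range of 53.2% to 100%. The share on Suz12 was larger in the covered piece than in the whole domain in 87 domains and smaller in 24. In 1 domain, chr11:96048080-96054470 described above, the covered part met no Suz12. In the 453 domains with Phf19 that were still listed, the summed shares were 65.2% and 84.7%. Along all 1118 domains without Phf19, both lists were more frequent at the centre (Suz12 76.4%, shPhf19 sites 5.01%) than at the edges. At the edges Suz12 was present in 17.9% and 19.0%, and shPhf19 sites in 0.179%. The part of this shared position in the shares on Suz12 was not tested.

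Of the 5 domains with the largest covered share, 3 lay on chromosome 14. The shares were 95.3% at chr14:6168874-6171887, 92.0% at chr14:5726488-5736849, 73.8% at chr14:7720606-7725235, 71.5% at chr2:17950406-17953432 and 70.6% at chr5:102094423-102098619. The second of these, 10.4 kb wide, held a Suz12 site of 2.55 kb inside an shPhf19 site of 9530 bp, so that 26.8% of the covered part was on Suz12. Of the 10 widest domains still listed, those not yet described had smaller covered shares. They were chr17:35572189-35582454 (10.3 kb, 43.3% covered), chr9:88218538-88227204 (8.67 kb, 12.7%), chr11:118939117-118947078 (7.96 kb, 18.4%) and chr7:150150223-150158113 (7.89 kb, 23.4%).

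Although no domain overlapped Phf19, some lay beside it. A Phf19 site was listed within 1 kb of 49 domains (4.38%), within 10 kb of 178 (15.9%, 13.8 to 18.2) and within 100 kb of 454 (40.6%). The median distance was 149.5 kb. In narrow sites with Suz12 and no Phf19 the shares at the same distances were 7.59%, 14.6% and 38.1%. In wide sites with neither factor they were 0.840%, 9.66% and 38.2%. In 48 domains the Suz12 site itself ran past the domain edge and held a Phf19 site outside it. When control sites within 1 kb of each other were first joined, the share with Phf19 within 10 kb was 7.23%. No difference by nearness to Phf19 could be shown. Domains still listed made up 11.2% of the 178 domains within 10 kb and 9.79% of the others (1.45 points, -2.92 to 7.20). The shares were 16.3% up to 1 kb (8 of 49), 9.30% at 1 to 10 kb, 8.33% at 10 to 100 kb, 9.41% from there to 1 Mb and 15.8% beyond (16 of 101). The last class holds 24 domains of a stretch of chromosome 14 described below, 12 of them still listed, and without these its share was 5.19% (4 of 77). Another control H3K27me3 site lay within 10 kb of 513 domains (45.9%), and in 164 at least 1 such neighbour held Phf19. For wide domains with Suz12 and Phf19 the share with another control site so near was 54.5%. It was 74.8% for wide sites with neither factor and 53.8% for narrow sites with Suz12 and no Phf19. Of the 513, 11.9% were still listed, against 8.43% of the 605 without such a neighbour (3.46 points, -0.0790 to 7.12).

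The domains were spread over all autosomes, from 23 on chromosome 16 to 98 on chromosome 4, with 1 on the X chromosome and none on the Y. They made up between 38.9% (chromosome 3) and 58.2% (chromosome 14) of the wide domains with Suz12 on each autosome. The share still listed was highest on chromosome 14, with 14 of 46 (30.4%, 17.7 to 45.8). Of these, 12 lay among the 24 domains at 3204610 to 9152282, before the first Phf19 site of that chromosome at 13172668. That stretch held 119 control sites, 69 with Suz12, and 47 were still listed. On the rest of chromosome 14, 2 of 22 domains were still listed. The 5 domains farthest from any Phf19 site all lay in the stretch, between chr14:3204610-3208446 (9.96 Mb away) and chr14:5102648-5105843 (8.07 Mb). Without the stretch, 9.14% of the domains (7.50 to 11.0) were still listed. The domains also gathered elsewhere. Of 697 windows of 1 Mb that held any, 597 held 1 or 2, while chromosome 18 at 37 to 38 Mb held 23, of which 3 were still listed. Chromosome 17 at 35 to 36 Mb held 9, of which 5 were still listed.

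**Figure D5:**
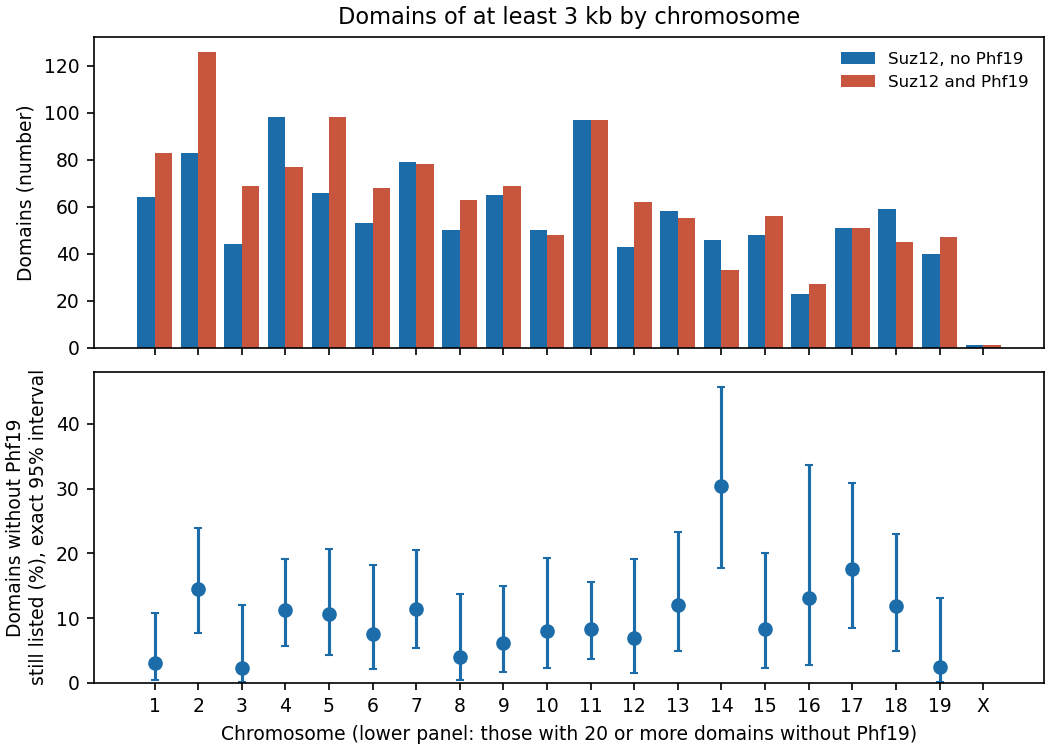
Number of wide control H3K27me3 domains with Suz12 by chromosome (upper panel, without Phf19 in blue and with Phf19 in red) and share of those without Phf19 that overlap an shPhf19 site (lower panel, %, with exact 95% intervals, for chromosomes with 20 or more). Chromosome 14 is highest at 30.4%, and its interval (17.7 to 45.8) overlaps those of several others.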

How the data were processed

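The authors deposited 4 lists of sites with chromosome, start and end, and no score or count. Per the submitters' processing notes, the tools were Bowtie 0.12.7 and MACS 1.4.1 and the build mm9, with no roles stated. For the peak threshold, control library and filters, the sources used here say nothing, and narrower or weaker sites that a threshold removed cannot be seen. Width is the end less the start, and positions stand as listed. Overlap means at least 1 shared base, and the counts equalled those of bedtools 2.31.1 in 12 of 12 pairs of lists. Shares carry exact Clopper-Pearson 95% intervals and differences Newcombe intervals. Of these, the Newcombe interval alone was tested on simulated data. The simulated sites were independent, so the test does not cover neighbouring sites that vary together. No p-value is given, since each H3K27me3 condition is 1 library.

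The set of domains, the comparisons and the naming rule were chosen with earlier results of these data known. Named were the 10 widest domains, the 10 widest still listed, the 5 with the largest covered share, the 5 with the most Suz12 sites (ties taken in text order of chromosome names), the 5 farthest from Phf19 and the 3 on either side of the width limit. The stretch of chromosome 14, the 1 Mb windows, the classes of Suz12-covered length, of distance to Phf19, of neighbours and of sites within 100 bp of the width limit, and the splits by Suz12 number and coverage were chosen after the data were seen. The gene lists planned were not used, since the reference table given is of another build. H3K36me3, H3K36me2 and IgG samples were not analysed here. Scripts ran under Python 3.11.15 with scipy 1.17.1, pandas 2.3.3, numpy 2.4.6 and matplotlib 3.10.9.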

Additional observations from a re-analysis of the deposited data

How the results depend on the processing

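Of 59 alternative values of 8 results, 44 fell inside the reported value's interval, 15 moved beyond it and 0 changed sign among the differences whose interval excludes 0. With a width minimum of 5000 bp, 20.9% of the domains were still listed, and the differences were -32.4 points from domains with Phf19, 3.20 points from sites with neither factor (-9.23 to 13.0) and 17.8 points from narrower sites with Suz12. There Suz12 covered a median of 43.5% of the length, shPhf19 sites 25.4%, and 20.9% had Phf19 within 10 kb. With a minimum of 2000 bp, 6.45% were still listed, 5.86 points more than the narrower sites, and shPhf19 sites covered 37.4%. Joining control sites within 1 kb gave 8.17% still listed, 28.2% covered and 7.23% with Phf19 within 10 kb. The difference from domains with Phf19 was -11.3 points within width classes and -9.69 points within classes of Suz12-covered length, the latter chosen after the data were seen. The cause of these shifts was not tested. The 4 results on sites still listed stayed within their intervals with 50% overlap required or gaps of 1 kb allowed. They also did so without domains within 10 kb of Phf19, without chromosome 14 and without the sex chromosomes. The distance to Phf19 was applied to the domains and the narrow sites. The 23 of 238 wide sites with neither factor within 10 kb of Phf19 were not left out. No paired analysis was possible because each H3K27me3 condition is 1 library, and leaving out a Phf19 replicate was not possible because its list holds the sites shared by both. Read depth is unknown.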
